A study of Homo sapiens with 27 samples.

Results

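CKI, Compound Kushen Injection, is an injectable herbal preparation made from Kushen (the root of Sophora flavescens) and Baituling, and A431 is an established human line from an epidermoid (squamous) carcinoma. RNA sequencing of A431 cells exposed to CKI at 1.0 mg/ml for 48 h was compared to untreated A431 cells, with 3 libraries in each group. These 6 libraries were chosen by their labels out of 27 in the series. Another set of 3 A431 libraries, labelled vehicle control at the same time point, was used beside them as another control. What the vehicle consisted of is not stated. Nor is it stated that the 3 libraries of a group came from separate cultures, so every p-value measures the spread between libraries. MDA-MB-231, an established human breast carcinoma line, was treated with the same dose for the same time and serves here to show where A431 differed. A431 libraries of cells given doxorubicin, alone or with CKI, entered the A431 fit but are not compared here.

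Several regulatory systems recur below. The aryl hydrocarbon receptor (AhR) binds flat aromatic compounds and switches on CYP1 enzymes that oxidise them, while NRF2 is released from KEAP1 by electrophiles and switches on genes that keep glutathione and thioredoxin reduced. SREBP proteins are held in the endoplasmic reticulum by INSIG proteins while sterols are plentiful, and on release they switch on cholesterol and fatty acid synthesis. E2F factors switch on the genes that license replication origins and copy DNA, and A431 cells carry many EGF receptors, whose signalling switches on immediate early genes that are then shut off by feedback inhibitors.

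The 6 libraries held between 18218173 and 21105289 counts each. Log2 CPM correlated between replicates at Pearson's r from 0.993 to 0.995, and replicates differed by more than counting noise. Chi-square per degree of freedom, a measure of that excess, was 2.01 to 5.5 between replicates of untreated or CKI cells. Between vehicle replicates it was higher, at 9.98 to 28.5, with r from 0.991 to 0.994. CPM is the count scaled to a common library size with TMM factors and is not corrected for gene length, so levels are compared between groups for one gene and never between genes. Squamous identity was checked on 15 epithelial genes: KRT5, a basal keratin, was at 3444, 3476 and 3851 CPM in the untreated libraries and 2056, 2075 and 2069 CPM in the CKI libraries, lower but within the fold threshold. Of the 15, KRT17, a stress keratin, passed (1.36, and 0.64 against vehicle, not passing), 3 passed without untreated replicate 3, and none passed against vehicle. Of 5 leukocyte markers none passed, and 1 did without CKI replicate 1 or 2. Of 7 fibroblast markers 2 rose, COL3A1 and LUM, with a median of 1.28, and their summed level went from between 22.96 and 29.75 CPM to between 46.26 and 50.11 CPM. The COL3A1 call was lost without untreated replicate 1 or 2 or CKI replicate 3, which left 1. It was lost against vehicle too, where 2 of the 7 still rose. Of 15 markers of MDA-MB-231 and mesenchymal cells 2 rose and 2 fell. The part of these marker shifts in the results below was not tested. In a scaling plot of the 9 untreated, vehicle and CKI libraries, the first dimension, with 58.7% of the variance, put all 3 CKI libraries between -1.70 and -1.62 and all other 6 between 0.75 and 0.94.

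CKI changed the expression of 3554 of 15881 tested genes, that is 22.4%, with an adjusted p-value under 0.05 and more than a 1 log2 unit change in edgeR's quasi-likelihood test. Of these DE genes, 1901 rose, 12% of all tested genes, and 1653 fell, 10.4%. Every count of list members below is to be read beside these shares. Only 192 of the rises and 46 of the falls exceeded 3 on the log2 scale. At any fold, 10648 genes had an adjusted p under 0.05, with 5291 higher and 5357 lower, and the median log2 fold change of all tested genes was 0.0028. Among the DE genes, 50 that rose had no count in any untreated library and 15 that fell had none in any CKI library, and no fold is given for those.

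**Figure D1:**
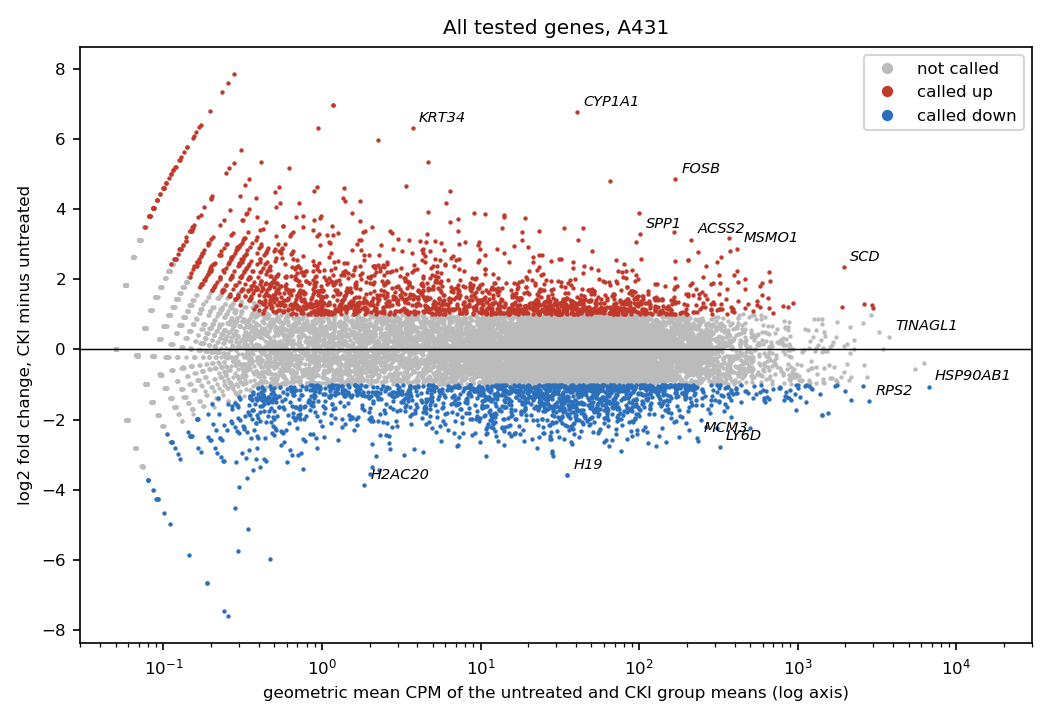
Log2 fold change of CKI against untreated A431 cells (vertical axis) for every tested gene, against the geometric mean of the 2 groups' CPM (log axis). Red points are the 1901 genes called up and blue points the 1653 called down; the streaks at the left edge are genes with few or no counts in 1 group, whose fitted folds depend on the prior count.

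The vehicle control bears on every result that follows, because it differed from untreated cells as well. By the same thresholds 404 genes, 2.54% of those tested, changed with vehicle, 166 upward (1.05%) and 238 downward (1.5%), and the latter count was 372 without vehicle replicate 3. Against vehicle instead of untreated cells, CKI changed 3100 genes, 19.5% of those tested, with 1795 upward (11.3%) and 1305 downward (8.22%). Of the 3554 DE genes against untreated cells, 2337 (65.8%) were also called in the same direction against vehicle. By direction, this was 67.2% of the rises and 64.1% of the falls. At any size, 1866 of the 1901 rises and 1634 of the 1653 falls had the same sign against vehicle. Vehicle alone against untreated was called in the same direction for 171 of the 3554 and in the opposite direction for 30. Those contrasts share the CKI or the untreated libraries, so they are given side by side, and the contrast of vehicle with untreated is the test of the difference between them.

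The smallest adjusted p-value of the comparison belonged to a gene of the AhR system. CYP1A1, the enzyme that oxidises polycyclic aromatic compounds and the standard readout of AhR, was at 4.0, 3.42 and 4.23 CPM in the untreated libraries, 3.54, 5.11 and 4.82 CPM in the vehicle libraries and 413, 418 and 437 CPM in the CKI libraries. The CKI libraries stood far above both other groups without overlap, with a log2 fold change of 6.77 (SE 0.092, n = 3 and 3, adjusted p = 1.2e-23), by edgeR's quasi-likelihood test. On GRCh37 CYP1A1 lies on the reverse strand of chromosome 15, from 75011883 to 75017877. CYP1B1, a related oxidase of hormones and aromatic compounds, went from 12.6, 13.5 and 13.6 CPM to 79, 77.3 and 79.8 CPM, again without overlap (log2 fold change 2.57, SE 0.076, n = 3 and 3, adjusted p = 4.24e-18). AHRR, the repressor that AhR induces to limit itself, rose by 2.55 on the log2 scale (SE 0.21). SCIN, which encodes the actin-severing protein scinderin, had 0.417, 0.938 and 0.568 CPM untreated and 15.3, 16.8 and 17.7 CPM with CKI, so the lowest CKI library was many times the highest untreated one (log2 fold change 4.66, SE 0.17). Of the 20 tested genes in a list of AhR targets and partners, 9 rose and 2 fell, with a median log2 fold change of 0.56 against 0.0028 for all genes. Neither AHR itself (0.69) nor its partner ARNT (0.3) passed the fold threshold. TIPARP, an AhR-induced ADP-ribosyltransferase, rose by 1.54 with CKI and by 1.66 with vehicle alone, whereas CYP1A1, CYP1B1 and AHRR had vehicle values of 0.22, 0.12 and -0.36 that did not pass. The 2 genes of the list that fell, STC2 (a secreted glycoprotein, -1.31) and SLC7A5 (an amino acid transporter, -1.04), are also targets of the ATF4 stress pathway. The SLC7A5 value lay at the threshold and lost its call without untreated replicate 3, without CKI replicate 1, and against vehicle (-0.72).

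The core of the AhR binding site, GCGTG, is shown in capitals on either strand in the 250 bases before the start of 2 responding genes (RefSeq, GRCh38.p14), so that its place relative to the start can be seen.
CYP1A1: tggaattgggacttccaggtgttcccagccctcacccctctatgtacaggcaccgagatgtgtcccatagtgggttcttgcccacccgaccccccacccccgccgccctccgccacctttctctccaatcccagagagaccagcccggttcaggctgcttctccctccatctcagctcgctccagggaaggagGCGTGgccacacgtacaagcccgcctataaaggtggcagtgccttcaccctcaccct
AHRR: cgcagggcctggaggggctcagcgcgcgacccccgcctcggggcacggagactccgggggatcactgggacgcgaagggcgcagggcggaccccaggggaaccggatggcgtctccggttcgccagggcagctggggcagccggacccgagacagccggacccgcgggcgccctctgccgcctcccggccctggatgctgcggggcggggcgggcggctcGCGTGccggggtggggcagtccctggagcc
CYP1A1 is on the reverse strand at chr15:74725529-74725778, with the match starting 57 bases before the gene start, and AHRR is on the forward strand at chr5:321464-321713, with the match 30 bases before. The core is short and common: in windows from 250 bases before to 50 bases after the start, it was present in 48.1% of the 12559 tested genes with a RefSeq promoter, in 11 of 15 matched AhR list members, and in 39.3% of the genes that rose. The match is a description of the sequence and not a measured binding site.

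Other genes of foreign-compound handling rose alongside, mostly those of NRF2. AKR1B10, an aldo-keto reductase that detoxifies carbonyls, was at 1.55, 1.32 and 1.32 CPM untreated and 24.1, 23.9 and 28.2 CPM with CKI (log2 fold change 4.17, SE 0.14, n = 3 and 3, adjusted p = 5.97e-17). AKR1C3, a reductase of steroids and prostaglandins, went from 12.8, 13.6 and 13.4 CPM to 150.4, 139 and 146 CPM (log2 fold change 3.45, SE 0.074, n = 3 and 3, adjusted p = 4.68e-20). In both, every CKI library exceeded every untreated library by several-fold, and the vehicle values were below the untreated ones (-0.82 and -0.61 on the log2 scale). The AKR1C genes are close copies of one another, so counting could have split reads among them. HMOX1, haem oxygenase, was at 19.6, 19.4 and 20.1 CPM and then 95.6, 105 and 106 CPM (log2 fold change 2.37, SE 0.072, n = 3 and 3, adjusted p = 6.41e-18), with 19.2, 19 and 22.1 CPM under vehicle. The groups again did not overlap. TXNRD1, thioredoxin reductase, rose by 1.93 (SE 0.068), and SLC7A11, the cystine importer that feeds glutathione synthesis, by 1.34 (SE 0.076), or 0.85 against vehicle, which did not pass. FTL, the ferritin light chain that stores iron, went from 1579.5, 1664 and 1786 CPM to 4088, 4078 and 4245 CPM, a rise of 1.3 on the log2 scale. In all, 16 of 30 NRF2 genes rose and none fell, with a median of 1.02, and none of the 30 changed with vehicle. The list was not uniform: NQO1, a quinone reductase often used as an NRF2 readout, was at 0.27, and GCLC, the catalytic subunit of glutathione synthesis, was at -0.27. GCLC shares exons with KILH, a transcript that rose from 10.1, 9.87 and 10.3 CPM to 111, 110.2 and 113 CPM, and without strand the reads of such overlapping genes are uncertain.

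Efflux pumps and conjugating enzymes followed in part. Of 12 ABC transporters 6 rose and none fell: ABCG1, a cholesterol exporter, by 2.55, ABCA7, a lipid transporter, by 2.22, ABCC2, an exporter of conjugates, by 1.55, and ABCG2, an exporter of many drugs, by 1.15. ABCC1, another drug exporter, was at 0.34. For the 12, vehicle alone raised none and lowered 1, and CKI against vehicle raised 7 and lowered none. Of 34 tested oxidation and conjugation enzymes 11 rose and 3 fell, with a median of 0.35, while vehicle alone raised 1 and lowered none, and CKI against vehicle raised 10 and lowered 3. CYP4F3 and CYP4F12, which hydroxylate leukotrienes and fatty acids, rose by 2.85 and 2.5. MGST1, a membrane glutathione transferase, fell by 1.97 on the log2 scale, and CYP26A1, which breaks down retinoic acid, fell by 2.05. MGST1 had too few counts to be tested when the untreated and CKI libraries were fitted alone.

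**Figure D2:**
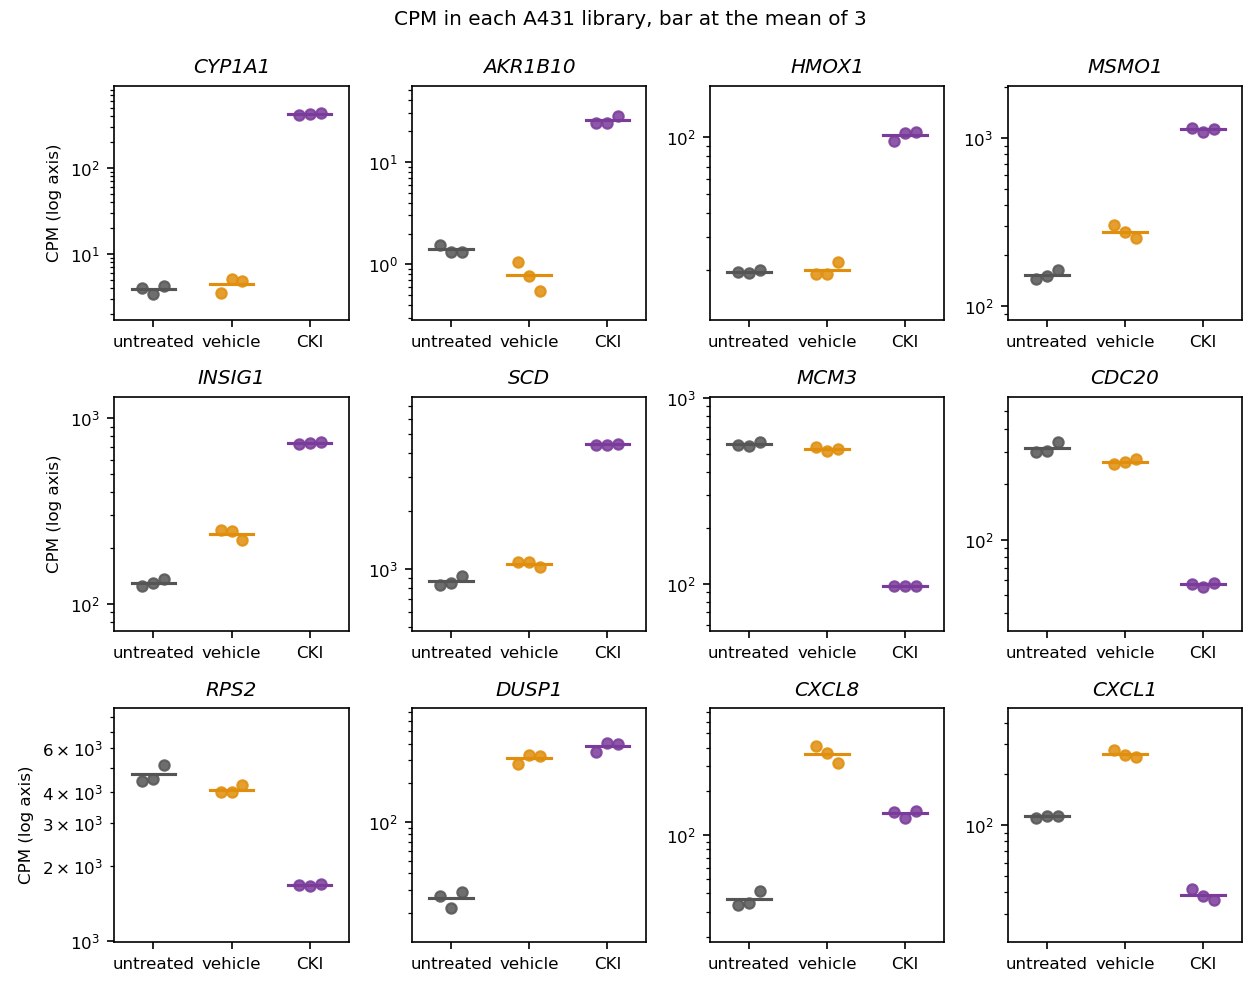
CPM (log axis) of 12 genes in each of the 9 A431 libraries, with 3 points per group for untreated, vehicle control and CKI and a bar at the group mean. CYP1A1, AKR1B10, HMOX1, SCD, MCM3, CDC20 and RPS2 have vehicle libraries close to untreated and CKI libraries apart, MSMO1 and INSIG1 have vehicle libraries in between, and DUSP1, CXCL8 and CXCL1 have vehicle libraries far above untreated.

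Genes of cholesterol synthesis and uptake rose together. MSMO1, which removes methyl groups from the sterol ring, was at 146, 149.98 and 163 CPM untreated, 302, 276 and 253 CPM with vehicle and 1149, 1082 and 1138 CPM with CKI (log2 fold change 2.88, SE 0.068, n = 3 and 3, adjusted p = 1.44e-19). No CKI library overlapped either other group, and the vehicle libraries lay between. INSIG1, the SREBP target that holds SREBP back, went from 124, 129 and 136 CPM to 728, 736 and 745 CPM (log2 fold change 2.5, SE 0.057, n = 3 and 3, adjusted p = 1.07e-19). The INSIG1 groups did not overlap. Of 30 tested genes of the list, 20 rose and none fell, and the median was 1.56. These included SQLE, squalene epoxidase (1.72), LSS, lanosterol synthase (2.55), IDI1, isopentenyl diphosphate isomerase (2.06), and SC5D, a late desaturase (2.28). The transcription factors did not pass, at 0.91 for SREBF2 and -0.02 for SREBF1. With vehicle alone, 1 of the 30, HMGCS1 (HMG-CoA synthase), rose (1.46), and the list's median was 0.37. Against vehicle, 16 of the 30 rose with CKI and 1 fell, TMEM97, the sigma-2 receptor (-1.12), with a median of 1.11, and HMGCS1 was at 0.66, which did not pass, where against untreated cells it was at 2.12.

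Fatty acid genes moved in the same direction. SCD, the desaturase that makes oleate, was at 830.4, 848 and 919.6 CPM in untreated libraries and at 4385, 4403 and 4468 CPM with CKI (log2 fold change 2.35, SE 0.053, n = 3 and 3, adjusted p = 7.78e-20). All 3 CKI values lay well above the untreated ones, and vehicle was at 1089.7, 1096 and 1026 CPM. ACSS2, which turns acetate into acetyl-CoA, went from 70.2, 71.7 and 73.3 CPM to 645, 622 and 621 CPM (log2 fold change 3.13, SE 0.057, n = 3 and 3, adjusted p = 3.92e-21), one of the smallest adjusted p-values of the comparison. FASN, fatty acid synthase, rose by 1.17, ACLY, ATP citrate lyase, by 1.28, FADS2, a desaturase of polyunsaturated fats, by 2.15, and ACSL1, which activates fatty acids, by 2.78. PPARA, a nuclear receptor of fatty acids, rose by 2.57. Of 27 tested members 12 rose and 1 fell, the exception being FABP5, a fatty acid binding protein of keratinocytes, which fell by 1.99. The median was 0.77, while vehicle alone changed none, and CKI against vehicle raised 10 and lowered 1. Of 13 liver X receptor targets 3 rose and 1 fell: ABCA1, which loads cholesterol onto lipoproteins, rose by 1.11 and ABCG1 as above, and PLTP, a phospholipid transfer protein, fell by 1.05. Here vehicle alone changed none, and CKI against vehicle raised 3 and lowered none. The PLTP call was lost without untreated replicate 3, without CKI replicate 1, and against vehicle (-0.59).

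Genes that license and fire replication origins fell as a group. MCM3, a subunit of the helicase that unwinds DNA, was at 555, 549.99 and 577 CPM untreated, 541, 516 and 530.5 CPM with vehicle and 96.9, 97.2 and 96.9 CPM with CKI. The CKI libraries were close to each other and far below both control groups (log2 fold change -2.53, SE 0.051, n = 3 and 3, adjusted p = 1.9e-20). CDC45, which activates the helicase, dropped from 72.6, 82.5 and 78.9 CPM to 9.74, 10.8 and 9.9 CPM (log2 fold change -2.94, SE 0.076, n = 3 and 3, adjusted p = 5.17e-19). CDT1, which loads the helicase, fell by 2.89 on the log2 scale, and the helicase subunits MCM5 and MCM6 had log2 fold changes of -2.76 and -1.83. MCM7 fell by 2.6 and GINS2, of the complex that joins CDC45 to the helicase, had a log2 fold change of -2.82, though both share exons with neighbouring genes. Of 24 tested licensing genes 21 fell and none rose, with a median of -1.87, beside a share of 10.4% falling among all genes. The 3 that did not pass were origin recognition subunits: ORC5 (-0.88), ORC2 (-0.28) and ORC4 (0.13). With vehicle none of the 24 changed.

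E2F sites are shown for MCM3, MCM6 and the replication fork gene PCNA, described below, written as TTTGGCGC or TTTCCCGC on either strand and printed in capitals in the 250 bases before the start (RefSeq, GRCh38.p14).
MCM3: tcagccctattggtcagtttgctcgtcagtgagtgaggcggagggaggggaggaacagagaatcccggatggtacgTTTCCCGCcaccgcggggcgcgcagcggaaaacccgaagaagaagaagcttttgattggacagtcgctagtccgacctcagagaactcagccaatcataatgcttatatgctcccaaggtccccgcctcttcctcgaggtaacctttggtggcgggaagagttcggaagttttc
MCM6: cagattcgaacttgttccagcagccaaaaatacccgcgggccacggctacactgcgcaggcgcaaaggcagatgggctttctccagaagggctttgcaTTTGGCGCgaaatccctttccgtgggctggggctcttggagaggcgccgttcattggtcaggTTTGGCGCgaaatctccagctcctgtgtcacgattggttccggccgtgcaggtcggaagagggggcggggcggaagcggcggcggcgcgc
PCNA: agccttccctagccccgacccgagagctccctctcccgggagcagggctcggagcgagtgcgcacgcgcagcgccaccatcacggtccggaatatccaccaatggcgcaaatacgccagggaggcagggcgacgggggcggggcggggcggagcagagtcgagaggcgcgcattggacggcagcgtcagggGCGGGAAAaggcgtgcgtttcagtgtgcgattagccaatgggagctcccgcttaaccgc
These windows are all on reverse strands, at chr6:52284743-52284992 for MCM3, chr2:135876444-135876693 for MCM6 and chr20:5126623-5126872 for PCNA. MCM6 holds 2 matches, starting 152 and 90 bases before the start, MCM3 holds 1 at 174 bases and PCNA 1 at 59 bases. Not every licensing gene had a match there: of windows not printed, MCM7 held 1, and CDC45 and CDC6 held none. Over the window that runs to 50 bases past the start, either spelling was present in 10 of 21 matched licensing genes and 8 of 28 replication fork genes, in 7.17% of the genes that fell and 1.45% of those that rose, beside 3.38% of all tested genes. Only 2 of 38 matched mitosis genes held one. The sterol response core CACCCCAC was in 1 of 23 matched sterol genes and 2.71% of all, and the AP-1 site TGACTCA was in 3 of 19 matched interleukin 1 family genes, 1 of 11 matched metalloproteinase genes and 3.61% of all.

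The machinery behind the helicase fell with it. PCNA, the sliding clamp of DNA polymerases, was at 534, 574 and 603 CPM untreated and 129, 116 and 126 CPM with CKI (log2 fold change -2.21, SE 0.059, n = 3 and 3, adjusted p = 7.31e-19), with every CKI library below every untreated one. Of 32 tested fork genes 26 fell, with a median of -1.70 (vehicle alone changed none, and CKI against vehicle raised 1 and lowered 26), among them RFC3, which loads PCNA (-2.61), POLE2, a polymerase epsilon subunit (-2.43), FEN1, which trims Okazaki fragments (-2.19), and LIG1, which seals them (-2.35). The exception was POLD4, a small polymerase delta subunit, which was the 1 that rose, by 1.02, a call lost without untreated replicate 2 or CKI replicate 3. TYMS, thymidylate synthase, went from 34.8, 36.9 and 37 CPM to 6.64, 6.1 and 7.04 CPM (log2 fold change -2.46, SE 0.093, n = 3 and 3, adjusted p = 2.6e-16). Of 30 nucleotide synthesis genes 19 fell, with a median of -1.14, and 1 rose: RRM2B (1.19), the ribonucleotide reductase subunit induced by p53, at 0.76 against vehicle and then not passing, while its proliferative counterpart RRM2 fell by 2.3. Over that list vehicle alone changed none, and CKI against vehicle raised none and lowered 21. Of 34 recombination, Fanconi and checkpoint genes 24 fell and none rose, with a median of -1.45, while vehicle alone changed none, and CKI against vehicle raised none and lowered 24. Among them were BLM, a helicase that dissolves crossovers (-2.37), and CHEK1, a checkpoint kinase (-1.35). Histone genes of S phase fell in 11 of 17 cases, for example H2AC20, an H2A gene (-3.87), and H1-5, a linker histone (-2.85). Their transcripts mostly lack a poly(A) tail and many are near-identical copies. In the histone list vehicle alone raised none and lowered 2, and CKI against vehicle raised 1 and lowered 6.

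Mitotic genes fell almost without exception. CDC20, which activates the anaphase-promoting complex, was at 301, 302 and 339.6 CPM in untreated libraries, 256, 263 and 275 CPM with vehicle and 57.6, 55.6 and 58.3 CPM with CKI (log2 fold change -2.46, SE 0.062, n = 3 and 3, adjusted p = 3.54e-19). UBE2C, the ubiquitin-conjugating enzyme of that complex, went from 269.6, 295 and 294 CPM to 44.7, 44.8 and 45.7 CPM (log2 fold change -2.67, SE 0.062, n = 3 and 3, adjusted p = 1.33e-19). For both genes the CKI values were well below all 6 control libraries. Of 45 tested members 42 fell and none rose, with a median of -1.85 and a vehicle median of 0.12, while vehicle alone changed none, and CKI against vehicle raised none and lowered 43. CCNB1, cyclin B1, fell by 2.22, as did AURKB, a kinase of chromosome attachment (-2.48), PLK1, a mitotic entry kinase (-2.06), MKI67, the Ki-67 proliferation marker (-1.61), and TOP2A, the topoisomerase that untangles chromosomes (-1.33). The 3 that did not pass were ECT2 (-0.88), BUB3 (-0.78) and CDC25B (-0.53). In bulk RNA, fewer dividing cells and less of each transcript per dividing cell cannot be told apart.

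The regulators of the G1 to S step moved both ways. CDKN1A, the CDK inhibitor p21, was at 82.7, 80.9 and 88.5 CPM untreated, 160.4, 166 and 168 CPM with vehicle and 469, 507 and 495 CPM with CKI (log2 fold change 2.55, SE 0.058, n = 3 and 3, adjusted p = 1.07e-19). All 3 groups stood apart, and CKI exceeded vehicle by 1.57 on the log2 scale (adjusted p = 1.09e-16). Of 25 listed genes 11 fell and 4 rose, or 2 without CKI replicate 3, while vehicle alone raised none and lowered 1, and CKI against vehicle raised 3 and lowered 11. CCND2, cyclin D2, went from 11.7, 13.3 and 10.2 CPM to 1.6, 1.44 and 1.64 CPM (log2 fold change -2.92, SE 0.17, n = 3 and 3, adjusted p = 7.35e-13), E2F1 fell by 2.06, as did CDC25A, a phosphatase that activates cyclin-dependent kinases (-1.96), and CDK4 (-1.42). CCND1, cyclin D1, was at 0.37 and did not pass. RBL2, the pocket protein of resting cells, rose by 1.1, and against vehicle, at 0.75, it did not pass. Among 33 p53 target genes 8 rose and 3 fell, with a median of 0.43: TP53INP1, which promotes arrest and autophagy, had 3.34, 4.52 and 2.21 CPM untreated and 26.4, 26.1 and 28.7 CPM with CKI (log2 fold change 2.99, SE 0.14, n = 3 and 3, adjusted p = 1.18e-14), ZMAT3, a splicing regulator, rose by 1.92 and BTG2, an antiproliferative factor, by 1.76, whereas DDB2, of nucleotide excision repair, fell by 1.54. BAX, a death effector, was at -0.26. Over the p53 list vehicle alone raised 2 and lowered 1, and CKI against vehicle raised 6 and lowered 3. Of 38 apoptosis regulators 4 rose and 3 fell with a median of 0.13, beside 12% rising and 10.4% falling among all genes. Those that rose included both BBC3, which promotes death (1.2), and the protective MCL1 (1.37), BCL2L1 (1.15) and CFLAR (1.21), while vehicle alone raised 2 and lowered none, and CKI against vehicle raised none and lowered 3. BCL2A1, a protective member, fell by 2.21.

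**Figure D3:**
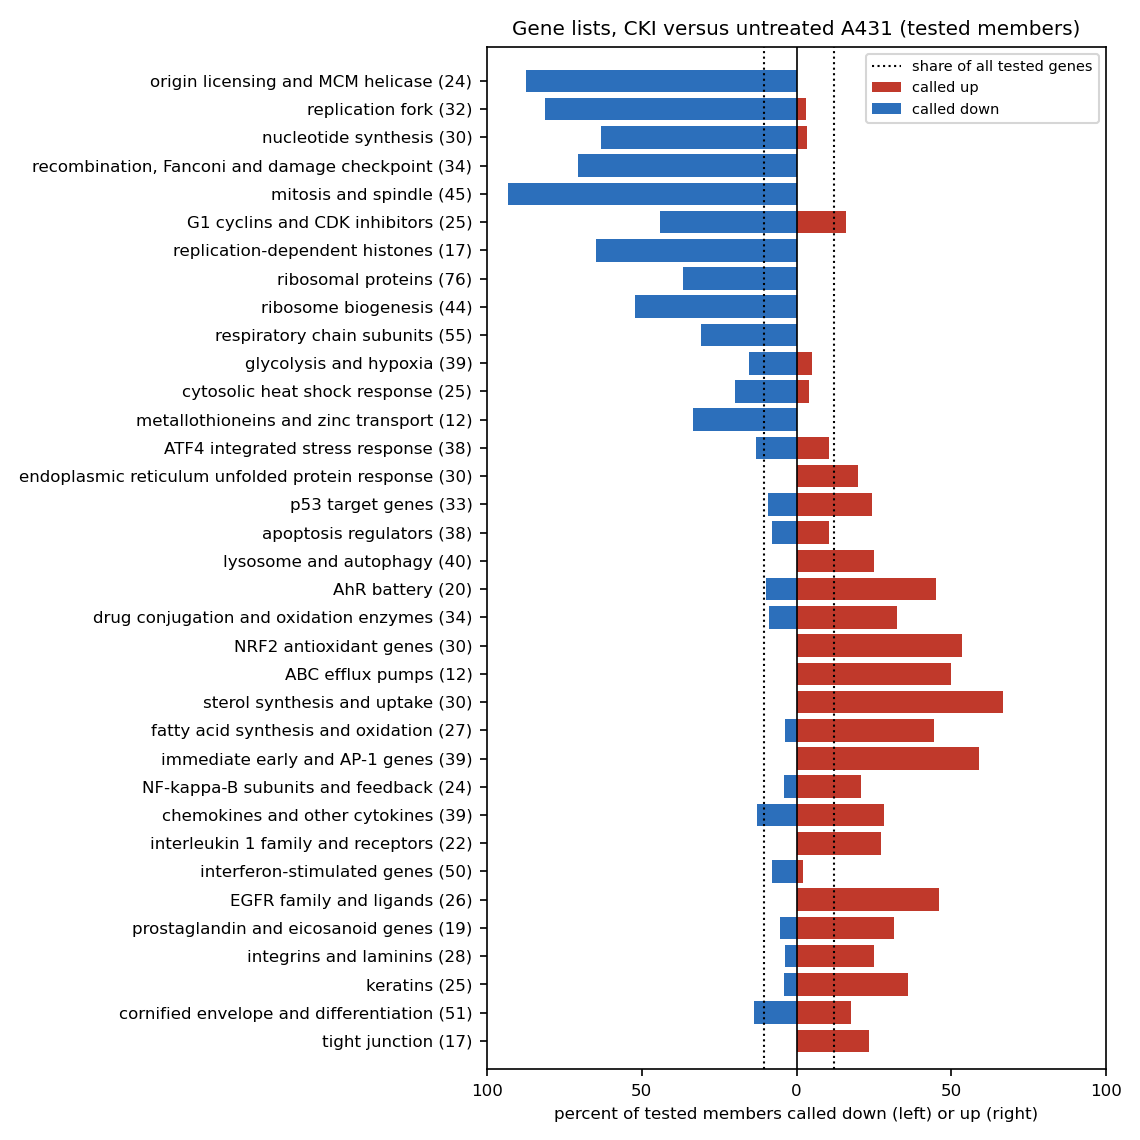
Percent of the tested members of 35 gene lists that were called down (blue, left) or up (red, right) with CKI against untreated A431 cells; numbers in brackets are the members tested. Dotted lines mark the share of all tested genes called down (10.4%) and up (12%). Replication, repair and mitosis lists reach furthest left, and sterol, immediate early and NRF2 lists furthest right.

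Ribosome genes fell broadly but by less. RPS2, a small-subunit protein, was at 4446, 4507 and 5154 CPM untreated and 1682, 1670.1 and 1702 CPM with CKI (log2 fold change -1.48, SE 0.056, n = 3 and 3, adjusted p = 2.49e-16), though small nucleolar RNAs lie within it, and RPSA, another, fell by 1.5. Of 76 ribosomal protein genes 28 fell past the fold threshold and 75 had an adjusted p under 0.05 with lower values, for a median of -0.86. Their summed level went from between 82580 and 88920 CPM to between 45180 and 46480 CPM, so the 2 ranges were far apart. NOP56, a core protein of ribosomal RNA modification, was at 445, 473 and 451 CPM and then 98.2, 90.8 and 92.2 CPM (log2 fold change -2.28, SE 0.057, n = 3 and 3, adjusted p = 2.88e-19), though small nucleolar RNAs lie within it. Of 44 ribosome biogenesis genes 23 fell and none rose, with a median of -1.02, including FBL, the rRNA methyltransferase fibrillarin (-1.95), NPM1, nucleophosmin (-1.44), and NCL, nucleolin (-1.38). For the 44, vehicle alone changed none, and CKI against vehicle raised none and lowered 30. Of 55 respiratory chain genes 17 fell, with a median of -0.78, for example ATP5MC1, an ATP synthase subunit (-1.97), and CYC1, cytochrome c1 (-1.27), whose call was lost against vehicle (-0.76) and with offsets for GC and length.

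The ribosomal protein and respiratory chain genes have short transcripts, and fold changes moved with transcript length. Across all tested genes the median log2 fold change rose from -0.30 in the fifth with the shortest transcripts to 0.28 in the fifth with the longest, and with vehicle the same medians went from -0.16 to 0.19. Across genes, which are not independent replicates, the vehicle fold change went with GC content at a Spearman rho of -0.57 and with length at 0.28, and that of CKI at -0.10 and 0.22. The median annotated transcript of ribosomal protein genes was 1938 bases and that of respiratory chain genes 1759, while that of ribosome biogenesis genes was 3580, beside 3693 for all genes. When the fit included GC and length offsets, 10 of 76 ribosomal protein genes and 10 of 55 respiratory chain genes fell, with medians of -0.65 and -0.60, and against vehicle 11 and 4 fell. Ribosome biogenesis had 24 falls of 44 with the offsets, origin licensing 21 of 24 and mitosis 44 of 45. The offsets adjusted for GC and length at once, and the part of each in the ribosomal and respiratory values was not tested.

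Metabolic, chaperone and stress lists are read beside the shares of all genes that rose (12%) and fell (10.4%). Of 39 glycolysis and hypoxia genes 6 fell and 2 rose (vehicle alone changed none, and CKI against vehicle raised 2 and lowered 5), with LDHA, lactate dehydrogenase, at -1.5 and SLC2A3, the glucose transporter GLUT3, at 2.7. SLC2A3 had too few counts to be tested when the untreated and CKI libraries were fitted alone. Of 25 cytosolic chaperone genes 5 fell and 1 rose, while vehicle alone changed none, and CKI against vehicle raised 1 and lowered 5. HSP90AB1, the constitutive HSP90, went from 9460.2, 9559.6 and 9912 CPM to 4683, 4588 and 4632 CPM. Its log2 fold change of -1.06 was close to the threshold and was not called with the offsets, and HSPA6, a strictly inducible HSP70, fell by 3.34 with CKI and had -2.48 with vehicle, and CKI against vehicle (-0.86) did not pass. Among 30 genes of the endoplasmic reticulum unfolded protein response 6 rose, among them SEC24D (1.7), a coat protein of export vesicles, and DNAJB9 (1.69), while the central chaperone HSPA5 was at 0.12. Over the 30, vehicle alone changed none, and CKI against vehicle raised 3 and lowered none. In the ATF4 list 4 of 38 rose and 5 fell, while vehicle alone raised 2 and lowered none, and CKI against vehicle raised 1 and lowered 7. The 5 that fell were 3 without untreated replicate 3 or CKI replicate 1, and 2 with the offsets. Those that rose included ATF3 and PPP1R15A, a phosphatase subunit of the stress response, which vehicle alone also raised. Of 12 metallothionein and zinc transport genes 4 fell, among them MT2A (-1.36), a metal-binding protein, while vehicle alone changed none, and CKI against vehicle raised none and lowered 2. None of the 12 rose, or 1 without untreated replicate 2 or 3 or CKI replicate 3. Lysosome and autophagy genes rose in 10 of 40 cases and fell in none: WIPI1, which marks forming autophagosomes, was at 4.59, 3.25 and 3.47 CPM untreated and 51, 49.96 and 54 CPM with CKI (log2 fold change 3.77, SE 0.099, n = 3 and 3, adjusted p = 6.35e-19), and SQSTM1, the autophagy receptor p62, rose by 1.09, while vehicle alone changed none, and CKI against vehicle raised 11 and lowered none.

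Immediate early genes rose strongly against untreated cells, and vehicle raised them as well. DUSP1, the phosphatase that shuts off MAP kinases, was at 26.9, 21.8 and 28.8 CPM untreated, 278, 325 and 324 CPM with vehicle and 344, 408 and 401 CPM with CKI. Both treated groups lay far above untreated, at a log2 fold change of 3.9 for CKI (SE 0.092) and 3.58 for vehicle, and CKI exceeded vehicle by only 0.32 (adjusted p = 0.0011 by edgeR's quasi-likelihood test). FOSB, an AP-1 subunit, went from 37.5, 28 and 28.1 CPM to 609, 697 and 747 CPM with vehicle and 831, 986 and 903 CPM with CKI. ATF3, a stress-induced factor, went from 12.2, 10.6 and 14.2 CPM to 501, 426 and 390.1 CPM with vehicle and 297, 384 and 358 CPM with CKI. For ATF3 the CKI libraries were below the vehicle libraries, at -0.34 on the log2 scale. Of 39 tested immediate early and AP-1 genes 23 rose with CKI, with a median of 1.19, and 19 rose with vehicle, with a median of 1.19. Directly against vehicle, CKI raised 4 of the 39 and lowered 2. Of the 4, NR4A1, an orphan nuclear receptor, was 1.32 higher, KLF2, a zinc-finger factor, 1.85 higher, and DUSP8, a MAP kinase phosphatase, 2.83 higher, and the remaining one was NR4A3, another orphan receptor, without a count in untreated cells. The 2 that were lower were DUSP2, a MAP kinase phosphatase (-2.17), and CCN1, a matrix protein (-1.07). EGR1 and KLF6, zinc-finger factors, rose by 3.18 and 3.34 with CKI and by 2.82 and 3.33 with vehicle. The rise of this group over untreated cells and a response to the vehicle cannot be told apart.

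**Figure D4:**
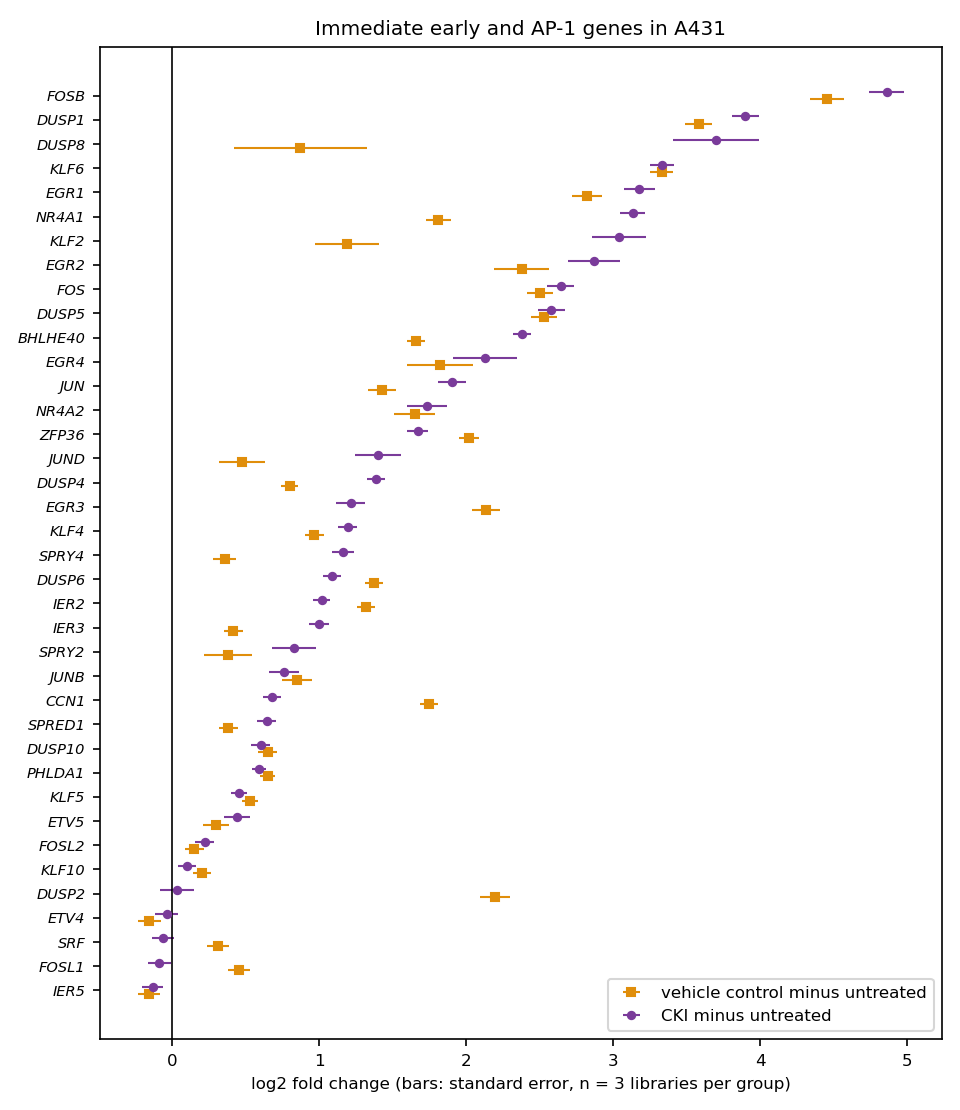
Log2 fold change against untreated A431 cells for 38 immediate early and AP-1 genes, with CKI as purple circles and vehicle control as orange squares, and bars for the standard error (3 libraries per group). For most genes the vehicle value lies near the CKI value, as for FOSB, DUSP1, KLF6 and EGR1, and for DUSP2 and CCN1 it lies above; NR4A3, with no count in untreated cells, is not drawn.

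Among inflammatory genes, vehicle often lay above CKI. CXCL8, the neutrophil attractant interleukin 8, was at 33.5, 34.3 and 41.6 CPM untreated, 412, 366 and 313 CPM with vehicle and 145, 131 and 148 CPM with CKI. CKI thus lay above untreated (log2 fold change 1.95, SE 0.096, n = 3 and 3, adjusted p = 2.32e-14) and below vehicle, at -1.37 (adjusted p = 3.9e-12), with no overlap among the 3 groups. CXCL1, another neutrophil attractant, was at 110.3, 113 and 113 CPM untreated, 276, 257 and 251 CPM with vehicle and 41.8, 38.1 and 35.9 CPM with CKI, so CKI was below both. It fell by 1.54 against untreated cells while vehicle rose by 1.22. Of 39 tested chemokine and cytokine genes 11 rose and 5 fell against untreated cells, vehicle alone raised 11 and lowered 1, and against vehicle CKI raised 2 and lowered 11. TNFAIP3, a brake on NF-kappa-B, rose by 2.03 with CKI and 3.35 with vehicle, and NFKBIZ, an atypical inhibitor, by 2.13 and 3.3. Of 24 NF-kappa-B genes 5 rose and 1 fell, and the subunits RELA (0.2) and NFKB1 (-0.64) did not pass. For those 24, vehicle alone raised 4 and lowered none, and CKI against vehicle raised 2 and lowered 2. The 1 that fell became 2 without untreated replicate 1 or 2 or CKI replicate 2. Of 22 interleukin 1 family genes 6 rose: IL1R2, the decoy receptor, was at 1.01, 0.607 and 0.442 CPM untreated and 4.21, 2.68 and 3.18 CPM with CKI (log2 fold change 2.28, SE 0.27, n = 3 and 3, adjusted p = 1.22e-07), IL1RL1, the receptor of interleukin 33, rose by 2.36, and IL1B by 1.22 beside 1.53 for vehicle. For those 22, vehicle alone raised 4 and lowered none, and CKI against vehicle raised 2 and lowered 3. None fell, or 1 without CKI replicate 2. Of 50 interferon-stimulated genes 1 rose and 4 fell, among them IFITM1, an antiviral membrane protein (-1.76), while vehicle alone changed none, and CKI against vehicle raised none and lowered 4. Of 18 HLA class I and peptide loading genes 4 fell, among them the proteasome activator subunit PSME2 (-1.73), while vehicle alone changed none, and CKI against vehicle raised none and lowered 2.

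Genes around the EGF receptor rose in 12 of 26 tested cases and fell in none, beside 12% rising among all genes. HBEGF, a shed ligand of the receptor, was at 35.4, 31.7 and 36.7 CPM untreated, 138, 135 and 122 CPM with vehicle and 174, 196 and 189 CPM with CKI (log2 fold change 2.43, SE 0.071, n = 3 and 3, adjusted p = 3.39e-18). All CKI libraries exceeded all vehicle libraries, and the vehicle rise of 1.93 passed on its own. EGFR itself went from 1959.8, 1941 and 2068 CPM to 3271, 3393 and 3379 CPM, a log2 fold change of 0.75 that missed the fold threshold. The median of the 26 was 0.80, and against vehicle 6 of them rose. ERBB3, a kinase-poor partner of EGFR, rose by 1.16 (0.9 against vehicle, not passing), GAB1, a docking adaptor, by 2.03, ADAM17, the protease that sheds the ligands, by 1.7, and ERRFI1, a feedback inhibitor, by 1.94 beside 2.58 with vehicle. Of 19 prostaglandin and eicosanoid genes 6 rose and 1 fell, while vehicle alone raised 2 and lowered 1, and CKI against vehicle raised 5 and lowered 1. PTGS2, the inducible cyclooxygenase, rose by 2.44 with CKI and 1.89 with vehicle, while HPGD, which inactivates prostaglandins, rose by 2.71 with CKI and was at 0.33 with vehicle. PLA2G2F, a secreted phospholipase of skin, was among the largest rises, from 0.358, 0.221 and 0.189 CPM to 16.6, 15.5 and 17.2 CPM.

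Some adhesion and matrix genes rose. SPP1, osteopontin, an integrin ligand, was at 32.6, 30.6 and 33.6 CPM untreated and 328, 304 and 317 CPM with CKI (log2 fold change 3.29, SE 0.07, n = 3 and 3, adjusted p = 4.62e-20), without overlap and with 43.7, 41.8 and 36.2 CPM under vehicle. Of 28 integrin and laminin genes 7 rose and 1 fell: ITGA2, a collagen receptor chain, rose by 1.73, ITGB6, an epithelial chain, by 1.66, ITGAV by 1.57, and ITGA4, a leukocyte-type chain, fell by 1.71. For those 28, vehicle alone raised none and lowered 1, and CKI against vehicle raised 8 and lowered 1. In the plasminogen system 4 of 12 rose, with PLAU, urokinase, at 2.02 and 0.55 with vehicle, while vehicle alone raised 2 and lowered none, and CKI against vehicle raised 2 and lowered none. Of 20 metalloproteinases and inhibitors 5 rose and 1 fell, while vehicle alone changed none, and CKI against vehicle raised 8 and lowered 1. TIMP2, an inhibitor, rose by 1.91 and MMP13, a collagenase, by 1.45, and MMP9, a gelatinase, fell by 1.71. Of 26 collagen chains 7 rose and none fell, or 1 without CKI replicate 2, while vehicle alone raised none and lowered 2, and CKI against vehicle raised 7 and lowered none. Tight junction genes rose in 4 of 17 cases, with a median of 0.77: CLDN3 was at 2.56, 2.92 and 2.78 CPM untreated and 37.3, 41.1 and 42.8 CPM with CKI, and CLDN4 rose by 2.2, with 1.07 under vehicle, while vehicle alone raised 1 and lowered none, and CKI against vehicle raised 3 and lowered none. Of 20 regulators of the mesenchymal state 5 rose and 2 fell, in both senses: CDH2, N-cadherin, rose by 3.03 and FN1, fibronectin, by 1.29 (0.62 against vehicle, not passing), and VIM, vimentin, fell by 1.41. CDH2 had too few counts to be tested when the untreated and CKI libraries were fitted alone. Over these 20, vehicle alone raised 1 and lowered none, and CKI against vehicle raised 5 and lowered 2.

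Squamous differentiation genes moved both ways against untreated cells. KRT34, a hair keratin, was at 0.298, 0.496 and 0.379 CPM untreated and 29.3, 32 and 33.7 CPM with CKI (log2 fold change 6.3, SE 0.18, n = 3 and 3, adjusted p = 1.75e-18), and vehicle raised it by 1.75. LY6D, a surface protein of stratified epithelium, went the other way, from 819.5, 822 and 888 CPM to 117, 122 and 131 CPM (log2 fold change -2.77, SE 0.066, n = 3 and 3, adjusted p = 1.59e-19). Neither gene's CKI libraries overlapped the untreated ones. Of 25 keratin genes 9 rose and 1 fell, while vehicle alone raised 2 and lowered 1, and CKI against vehicle raised 7 and lowered 1. Of 51 cornified envelope and differentiation genes 9 rose and 7 fell, beside 12% rising and 10.4% falling among all genes. In that list vehicle alone raised 8 and lowered none, and CKI against vehicle raised 4 and lowered 12, so most of the calls against vehicle were downward. KLK5, a protease of the outer epidermis, rose by 3.92 and FLG, filaggrin, by 1.82. SPRR1B, a small proline-rich envelope protein, fell by 1.8 with CKI and was at 0.82 with vehicle. The late envelope protein IVL, involucrin, was at -0.37.

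Other signalling lists are given beside the background of 12% rising and 10.4% falling. Of 21 Notch genes 3 rose and 4 fell, while vehicle alone raised 1 and lowered none, and CKI against vehicle raised 2 and lowered 3. HES1, the classic target, rose by 1.82 beside 1.7 with vehicle, and JAG2, a ligand, was at -1.9. Of 36 Wnt genes 4 rose and 2 fell, while vehicle alone raised none and lowered 1, and CKI against vehicle raised 4 and lowered 2. Of 26 YAP and TEAD targets 4 rose and 3 fell, while vehicle alone raised 4 and lowered none, and CKI against vehicle raised none and lowered 5, so none of the 26 rose against vehicle. Of 25 BMP and SMAD genes 6 rose and 1 fell, while vehicle alone raised none and lowered 1, and CKI against vehicle raised 3 and lowered 1. Of 22 retinoid genes 4 rose and 3 fell, while vehicle alone changed none, and CKI against vehicle raised 2 and lowered 4. Of 19 clock genes 4 rose and none fell, while vehicle alone raised 1 and lowered none, and CKI against vehicle raised 4 and lowered 1. ID4, an inhibitor of DNA binding, rose by 2.46, and CRABP2, a retinoic acid binding protein, fell by 1.81.

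Genes ranked by size alone added some that belong to no list. QPRT, an enzyme of NAD synthesis, had 0.0596, 0.0552 and 0.126 CPM untreated and 10.6, 12 and 9.16 CPM with CKI, in counts that an uncharacterised row of the same Ensembl ID duplicates, and its exons overlap those of SPN. H19, a long noncoding RNA of growing tissue, was at 128, 119.6 and 117 CPM untreated, 56.7, 58.2 and 71.2 CPM with vehicle and 9.01, 10.1 and 11.2 CPM with CKI (log2 fold change -3.59, SE 0.099, n = 3 and 3, adjusted p = 1.29e-18), with a duplicate row too. STC1, a secreted glycoprotein, fell by 3.56, as did GLDC, of glycine breakdown (-3.0), HPDL, a mitochondrial dioxygenase (-3.05), and CDCA7, a chromatin factor of S phase (-3.05). TP53INP2, an autophagy factor, rose from 4.77, 5.3 and 5.3 CPM to 67, 74.6 and 66.1 CPM. Among the 10 genes with the most reads in untreated cells, HSP90AB1, RPS2, RPL8 (-1.04) and YBX1 (-1.43), a cold-shock RNA-binding protein, fell, while ACTG1, a cytoplasmic actin, was at 0.01 and EEF1A1, an elongation factor, at -0.38. The RPL8 call was lost without untreated replicate 3, against vehicle (-0.86), with the offsets and with library size alone.

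Set beside MDA-MB-231, the CKI response of A431 was tested gene by gene for a difference between the lines. In the 12-library fit of both lines, 2745 genes, 18.5% of 14848 tested, had CKI effects that differed between lines, and of the 3295 A431 DE genes tested there 1860 did. CYP1A1 rose by 6.78 in A431 and 6.28 in MDA-MB-231, and the difference of 0.5 (SE 0.23) had an adjusted p of 0.0894 in edgeR's quasi-likelihood test, so a difference was not shown. NRF2 genes rose in 14 of 30 cases in MDA-MB-231, with a median of 0.98, and the difference between lines passed for 4 upward and 3 downward of the 30. AKR1B10 was at 4.18 and 4.13 in the respective lines, and AKR1C3 at 3.46 and 1.95, where the difference passed. Sterol genes rose in 14 of 29 tested there, with a median of 0.80, and 7 were more positive and 2 more negative in A431 by the test of the difference. INSIG1 was at 2.51 in A431 and 0.8 in MDA-MB-231, and its difference passed. MCM3 fell by 2.52 in A431 and was at -0.8 in MDA-MB-231, a difference of -1.72 (SE 0.09, adjusted p = 2.11e-08). None of the 24 licensing genes and none of the 45 mitosis genes passed in MDA-MB-231, and the difference between lines passed for 18 and 42 of them. CDC20 was at -2.45 and -0.09. SCD rose by 2.36 in A431 and was at -0.49 in MDA-MB-231, a difference of 2.85 (adjusted p = 1.77e-08), and of 27 fatty acid genes 1 rose in MDA-MB-231. ABCA1 and ABCG1 rose in A431 and were at -3.2 and -3.71 in MDA-MB-231. DUSP1 was at 0.11 there. The series holds no vehicle control of MDA-MB-231, so the vehicle part of the A431 value stays in this contrast. With vehicle in place of untreated A431 libraries, 2151 genes differed between lines, and 60.4% of the 2745 calls were kept.

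**Figure D5:**
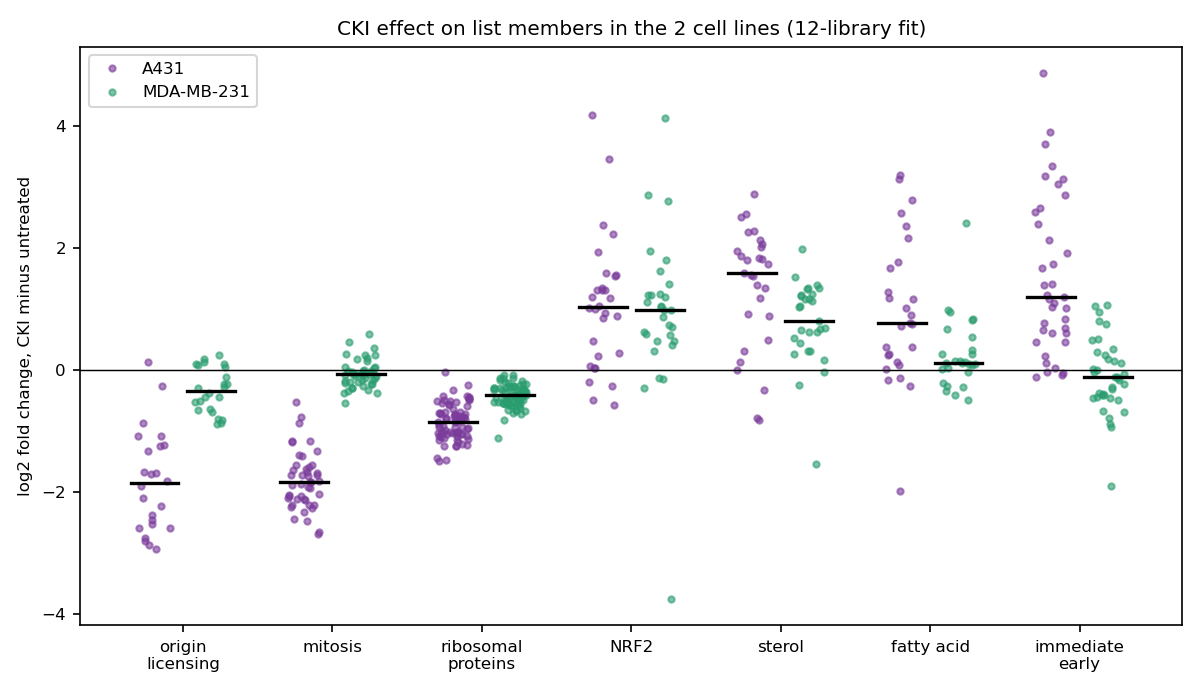
Log2 fold change of CKI against untreated cells for the members of 7 gene lists in A431 (purple) and MDA-MB-231 (green), from 1 fit of 12 libraries; each point is a gene and each black bar the list's median. Licensing and mitosis genes lie near -2 in A431 and near 0 in MDA-MB-231, and NRF2 genes overlap in both; NR4A3, with no count in untreated A431 cells, is not drawn.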

How the data were processed

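RNA was sequenced in 27 libraries, of which 15 were from A431 cells. Per the labels, total RNA was made into unstranded paired-end libraries, reads were trimmed with Trim Galore 0.3.7 and aligned to hg19 with STAR 2.5.3a, and edgeR was used. The authors deposited whole-number counts per Entrez gene for every library. The counting tool and annotation are not given in the sources used here. Symbols were matched for 24422 of 24566 rows. All columns were used or mapped to a sample, and none was left without one.

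Counts were tested with edgeR 4.0.16 in R 4.3.3: filterByExpr, TMM factors and a quasi-likelihood fit of the 15 A431 libraries, with Benjamini-Hochberg adjustment over all tested genes. Those 15 include cells given doxorubicin, alone or with CKI, which therefore also shaped which genes were tested and the estimated spread. A gene was called DE if its adjusted p was under 0.05 and its log2 fold change exceeded 1 in size. The test of the difference between cell lines used 12 libraries. Medians and counts over lists have no test of their own. Some Ensembl IDs, 194 in number, have rows with identical counts under several Entrez IDs.

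Named genes were members of the gene lists, the 12 DE genes per direction with the smallest adjusted p, the 12 with the largest change at 50 counts or more, and the 10 with the highest CPM, without withheld items. The members and lists were chosen with earlier results of these data known. Alternatives included DESeq2 1.42.0, other scalings and filters, and omission of each library. The fits were tried on simulated data with 200 changed genes. For CKI against untreated, among 15881 genes, 100% of these were found, and false calls made up 0.99% of all calls. For vehicle against untreated the same shares were 100% and 0%. For the difference between cell lines, among 14848 genes, they were 95.5% and 2.05%. The changed genes were drawn from those with a mean above 50 counts, and every change set exceeded the fold threshold. They were also far fewer than the 3554 genes called in the data. Recovery therefore does not bear on calls at low counts or near the fold threshold. Totals of 18218173 to 21105289 counts limit precision at low counts. Replicate numbers were not used to pair the samples in the main fit, and whether they mark a shared preparation is not stated.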

Additional observations from a re-analysis of the deposited data

Results flagged for a closer look

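The CKI response differed between A431 and MDA-MB-231 for 118 of the 184 genes named above that were tested in both lines, and 59 of these are given here because the difference of their log2 fold changes, A431 minus MDA-MB-231, exceeded 2 in size. Among all 14848 genes tested 18.5% differed, and many named genes were chosen for large changes in the same A431 libraries, so the count says nothing of them beyond that choice. The test was the line-by-treatment term of edgeR's quasi-likelihood fit of 12 libraries. A431 cells were compared with untreated cells in it, so a gene that vehicle alone raised in A431 carries that part here too. For MDA-MB-231 the series holds no vehicle control. The groups of 3 libraries are too small for a test of single outlying libraries.

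The response was more positive in A431 for these genes, in order of the difference. The first were ABCG1 (6.26), FOSB (5.27), QPRT (5.21), KRT34 (5.12), ATF3 (4.92), ABCA1 (4.32), KLF6 (3.81), DUSP1 (3.79) and SCIN (3.75). Next came NR4A1 (3.64), TP53INP2 (3.41), EGR1 (3.3), NFKBIZ (3.27), DUSP8 (2.96), PTGS2 (2.92), WIPI1 (2.88), KLF2 (2.86) and SCD (2.85). Below these were SLC2A3 (2.83), TP53INP1 (2.78), CLDN3 (2.65), MMP13 (2.64), TNFAIP3 (2.53), ERRFI1 (2.49), FN1 (2.42), CXCL8 (2.38) and ACSS2 (2.3). The smallest of these differences were ACSL1 (2.25), GAB1 (2.19), CDKN1A (2.18), IL1R2 (2.14), MCL1 (2.13), BBC3 (2.11), FADS2 (2.05), ITGA2 (2.02) and HPGD (2.0).

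The response was more negative in A431 for genes of replication and mitosis and some others. The most negative were KRT5 (-4.09), HSPA6 (-3.97), STC1 (-3.76), HPDL (-3.61), STC2 (-3.53), H19 (-3.23), H2AC20 (-3.0), CCND2 (-2.91) and CRABP2 (-2.64). Next were CDC45 (-2.5), CDT1 (-2.49), UBE2C (-2.42), AURKB (-2.42), CDC20 (-2.36), ITGA4 (-2.33), RFC3 (-2.31), FEN1 (-2.27) and JAG2 (-2.23). The remainder were MGST1 (-2.2), BLM (-2.08), MCM7 (-2.07), E2F1 (-2.04) and CCNB1 (-2.02).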

How the results depend on the processing

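The count of 3554 DE genes for CKI against untreated ranged from 3457 to 3605 when each library was left out. It was 3514 with DESeq2, 3546 with RLE factors, 3287 with offsets for GC content and length and 3100 against vehicle. With the untreated and CKI libraries alone in the fit, 3123 of 13711 tested genes were called, and 85.1% of the 3554 calls were kept. CDH2, COL3A1, MGST1 and SLC2A3 had too few counts to be tested in that smaller fit. No call of the 3554 turned direction under any alternative other than vehicle in place of untreated, where 6 did. Thresholds moved it further: adjusted p alone gave 10648 genes (5291 up and 5357 down), and a test against a log2 fold change of 1 (glmTreat) gave 1988 (1037 up and 951 down). Requiring 10 counts in every library left 1247 genes rising, out of 12485 tested. Library size alone moved the median log2 fold change of all genes to 0.111, with 2238 up and 1322 down. For vehicle against untreated, 404 genes became 174 (103 up, 71 down) with at least 10 counts in every library and 264 (107 down) with the offsets, and ranged from 324 to 561 when each library was left out. The downward count ranged from 159 to 372 in that case. The difference between lines had 2745 genes, 2646 to 2953 without each library, and 935 more negative in A431 with at least 10 counts in every library. With vehicle in place of untreated A431 libraries it had 2151 genes. Of the 2745 calls 60.4% were then kept, and 2 turned direction. The cause of these shifts was not tested beyond the number of genes that entered.

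Against vehicle 8 named genes that rose over untreated had negative values: ATF3 (-0.34), CXCL8 (-1.37), ERRFI1 (-0.64), IL1B (-0.31), NFKBIZ (-1.16), PPP1R15A (-0.35), TIPARP (-0.12) and TNFAIP3 (-1.31).

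With replicate number as a block, the calls were 3528 for CKI, 3264 with the offsets as well, 386 for vehicle and 2764 for the difference between lines. Deviations of same-numbered untreated and CKI libraries correlated at 0.042, -0.0229 and 0.0658, and not every library correlated best with its own number. Whether same-numbered libraries were grown or prepared together is not stated, and with 3 libraries per group these correlations cannot decide it.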
